A study of Mus musculus with 6 samples.

Results

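The genes described here are the core machinery of autophagy together with the kinase complex mTORC1 and its regulators, measured by RNA-seq in myeloid cells sorted from mouse gliomas. They are 44 listed genes, chosen by symbol, of which 43 were found among the 23107 rows of the count table. Atg101, a subunit of the ULK1 complex, is present under its older symbol 9430023L20Rik according to RefSeq. That row was measured but is left out of all counts below, except that promoter windows were sought for all 44 listed genes. The samples are 3 libraries from tumours labelled wild type for IDH1 (wtIDH1) and 3 from tumours labelled mutant IDH1 (mIDH1), all on a C57BL/6 background and with no treatment named in the labels. Every library was made from CD11b+ Gr-1+ cells taken out of a Percoll-enriched tumour suspension. Gr-1 antibodies bind Ly6G and Ly6C, so the gate can take in neutrophil-like and monocyte-like cells together. Summed neutrophil markers were low beside summed macrophage and monocyte markers in every library, as given below. The genotype is read as that of the tumour, and the labels used here name neither the exact IDH1 change nor how it was introduced, the animals' age, or whether replicates are separate mice, so a p-value here speaks only of the spread among 6 libraries, some of which may be technical.

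Autophagy encloses cytoplasm, damaged organelles or microbes in a double membrane that then fuses with the lysosome. The ULK1 kinase complex starts the process, the lipid kinase complex around Beclin 1 marks the site with phosphatidylinositol 3-phosphate, and ATG2 and WIPI proteins feed the growing membrane, called the phagophore. A ubiquitin-like conjugation system then attaches proteins of the ATG8 family (LC3 and GABARAP) to that membrane, where cargo receptors bind them. mTORC1, held on the lysosome by Rag GTPases when amino acids are plentiful, phosphorylates ULK1 and the transcription factor TFEB and so holds autophagy back. In macrophages and neutrophils the same proteins also serve the clearance of engulfed particles and shape cytokine release.

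Levels are given as counts-per-million (CPM) scaled between libraries by the TMM method, as mean ± SD over 3 libraries. Library totals lay between 19728205 and 35093265 counts, and the member with the fewest counts, Rragd, had between 13 and 146 per library. Genotypes were compared with edgeR's quasi-likelihood test, each log2 fold change is the mIDH1 level less the wtIDH1 level, given with its standard error (SE), and Benjamini-Hochberg adjustment covered all 12950 tested genes (threshold 0.05). Of the genes tested 8.17% passed, 2.78% as higher and 5.39% as lower in mIDH1. The split was 360 higher and 698 lower, or 486 and 593 with no scaling beyond the library total. Itgam, the gene of CD11b, averaged 1894 ± 146 CPM in wtIDH1 libraries and 2072 ± 211 in mIDH1 libraries, and overlapped between the groups. Ly6c2, the gene of a Ly6C antigen that Gr-1 antibodies bind, averaged 152 ± 54.1 CPM in wtIDH1 and fell to 45.0 ± 10.4 CPM in mIDH1 (edgeR adjusted p = 0.0018), so transcripts of both sort antigens were present in each group.

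Few genes of this machinery passed the test between cells from the 2 kinds of tumour. Of 43 members, all of which passed the filter on low counts, 1 rose and 2 fell in mIDH1. Rragc, which encodes a Rag GTPase, rose, and the initiating kinase gene Ulk1 and the lipid transfer gene Atg2a fell. These 3 genes are 6.98% of the members, near the 8.17% of all genes tested. In sorted bulk samples fewer cells of a type and less RNA per cell cannot be told apart, and the summed macrophage markers, 6049.6 to 6970.2 CPM in wtIDH1 and 7889.9 to 15844 CPM in mIDH1, moved with the genotype as well. In 32 members the log2 fold change was smaller than 0.5 in size, and 1 member, the scarce Rragd, reached 1. Of all 12950 genes tested, 7089 were below 0.5 in size and 2540 reached 1. The median log2 fold change of the members was -0.06 against 0.06 over all genes, 0.02 against 0.13 with scaling by library totals, and 0.01 against 0.12 with upper-quartile factors, so both medians moved together and the members' lay below in each. Without wtIDH1 replicate 3 the medians were 0.02 and 0.06. The 20 members outside the rule for named genes, Ulk2, Atg13 and Atg16l2 among them, had a median of 0.06 and ranged from -0.87 to 0.56. The groups did not overlap in 11 members (25.6%), 4 higher and 7 lower in mIDH1, against 28.9% of all genes. The median SE of a member's log2 fold change was 0.22, compared with 0.35 over all genes tested.

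**Figure D1:**
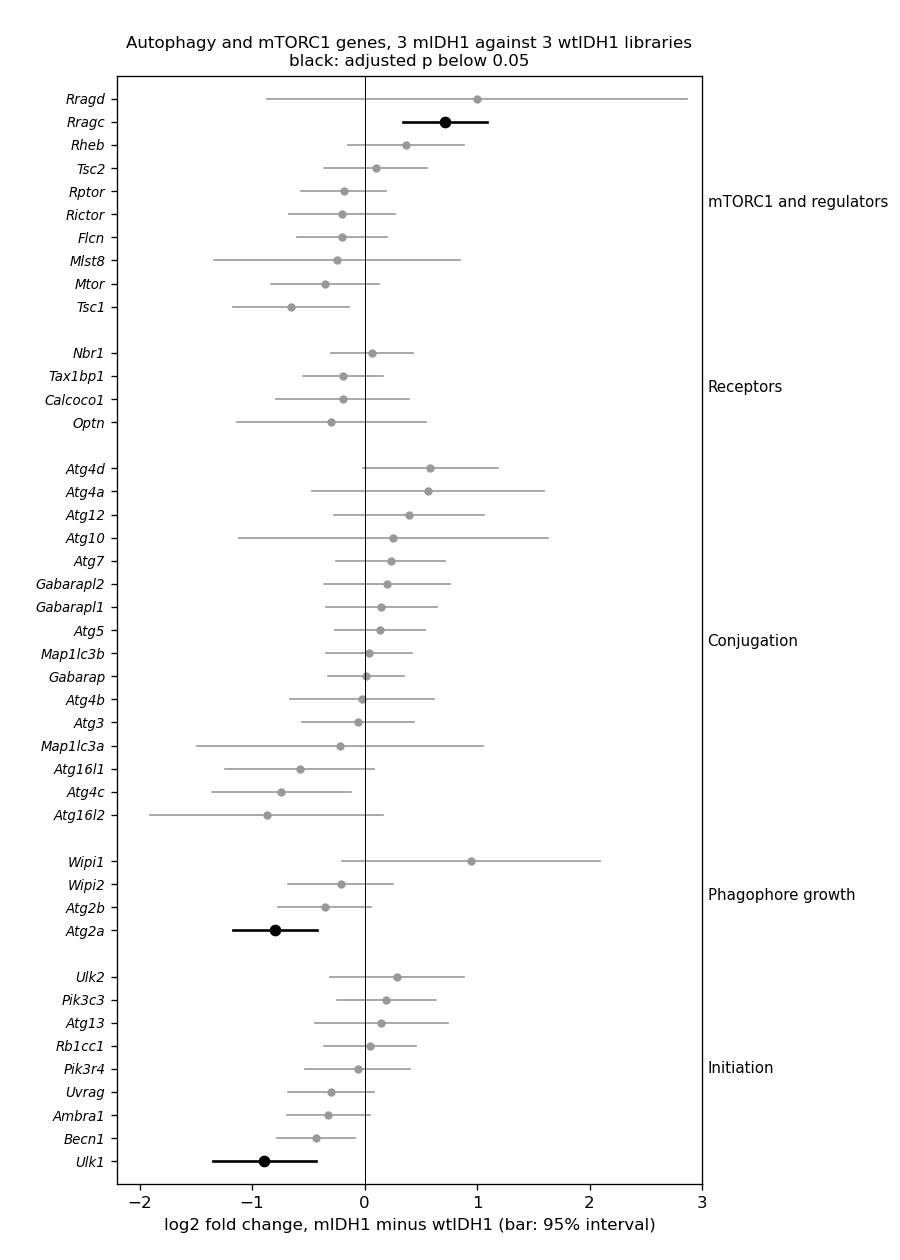
Log2 fold change (mIDH1 minus wtIDH1, x axis) of 43 autophagy and mTORC1 genes, in 5 groups by role, with points for the estimate and bars for its 95% interval. The 3 genes past the threshold are black: Ulk1 (-0.89) and Atg2a (-0.80) lie to the left of 0 and Rragc (0.72) to the right, while most grey points lie within 0.5 of 0.

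In the group that starts autophagy, 1 of 9 tested members fell, none rose, and 8 did not pass. The share past the threshold was 11.1%, against 8.17% of all genes tested. Ulk1, the kinase that receives the signals of mTORC1 and AMPK (RefSeq, GRCm38.p6 for this and later positions: chromosome 5, 110784489 to 110810120), was at 70.9, 89.0 and 71.6 CPM in wtIDH1 replicates 1, 2 and 3 and at 33.6, 43.5 and 47.8 CPM in mIDH1. The lowest wtIDH1 library lay well above the highest mIDH1 library, and the mean fell from 77.2 ± 10.2 to 41.6 ± 7.27 CPM (SD, n = 3 each; edgeR log2 fold change -0.89 ± 0.21 SE, adjusted p = 0.023). The call was lost without wtIDH1 replicate 2 (adjusted p = 0.129) or 3 (0.067) and without mIDH1 replicate 1 (0.056) or 2 (0.06), with log2 fold changes of -1.002 to -0.76 over all 6 omissions. Ulk2, its close relative, was at 48.8, 39.3 and 51.3 CPM in wtIDH1 and 38.0, 50.2 and 82.4 CPM in mIDH1, with mIDH1 replicate 3 highest and the groups overlapping (log2 fold change 0.29, adjusted p = 0.597). Whether the change of Ulk1 differs from that of Ulk2 was not tested.

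The partners of ULK1 did not pass the threshold. Rb1cc1, the gene of the scaffold FIP200, was at 64.9 ± 3.42 CPM in wtIDH1 libraries and 67.1 ± 9.90 in mIDH1 libraries, with a 95% interval of the log2 fold change of -0.36 to 0.46. Atg13, the regulatory subunit, was between 31.3 and 33.2 CPM in wtIDH1 and at 50.4, 28.4 and 28.4 CPM in mIDH1, so that the mIDH1 libraries lay on both sides of the wtIDH1 range. The row of Atg101 was at 27.3 ± 7.73 and 31.8 ± 7.19 CPM (log2 fold change 0.22, adjusted p = 0.721).

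Genes of the lipid kinase complex did not pass either. Becn1, which encodes Beclin 1, was at 166, 144 and 169 CPM in wtIDH1 and 123, 113 and 118 CPM in mIDH1. All 3 mIDH1 libraries were below all 3 wtIDH1 libraries (log2 fold change -0.43 ± 0.16 SE, adjusted p = 0.125, edgeR), while 14.9% of all genes tested showed the same separation downwards. Exons of the antisense gene Cntd1 cover 29.6% of Becn1's exon bases, and Cntd1 itself was listed at 1.29 and 2.44 CPM; the kit does not mark strand, so reads in the shared part cannot be assigned. Ambra1, an activator of the complex, was at 104, 111 and 115 CPM in wtIDH1 and 98.2, 79.6 and 86.3 CPM in mIDH1, again without overlap but not past the threshold (edgeR log2 fold change -0.32 ± 0.17 SE, adjusted p = 0.293). Pik3c3, the lipid kinase VPS34 itself, lay slightly higher in every mIDH1 library (45.9 ± 4.99 and 52.6 ± 3.00 CPM, log2 fold change 0.19, adjusted p = 0.639). Its partner genes Pik3r4 (-0.06) and Uvrag (-0.29) had log2 fold changes with overlapping groups and adjusted p of 0.913 and 0.368.

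Of 4 genes that enlarge the phagophore, 1 fell (25%, where 8.17% of all genes tested passed). Atg2a, which encodes a bridge that moves lipid from the endoplasmic reticulum into the phagophore (chromosome 19, 6241478 to 6262304), was at 155, 181 and 171 CPM in wtIDH1 and 88.7, 90.5 and 113 CPM in mIDH1. The groups were far apart, and the mean fell from 169 ± 13.1 to 97.3 ± 13.3 CPM (SD, n = 3 each; edgeR log2 fold change -0.80 ± 0.17 SE, adjusted p = 0.015). The adjusted p was 0.088, 0.066 and 0.062 when wtIDH1 replicate 2, wtIDH1 replicate 3 and mIDH1 replicate 2 were left out in turn, and below the threshold in the 12 other alternatives. Atg2b, the paralog, was at 74.9, 67.0 and 66.1 CPM in wtIDH1 and 46.9, 59.3 and 56.6 CPM in mIDH1, lower in every mIDH1 library without passing (edgeR log2 fold change -0.35 ± 0.19 SE, adjusted p = 0.311).

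The WIPI genes, whose proteins read the phosphatidylinositol 3-phosphate mark, had estimates of opposite sign, and neither passed. Wipi1 was scarce, at 6.98, 7.97 and 4.84 CPM in wtIDH1 and 4.88, 13.5 and 19.9 CPM in mIDH1, with mIDH1 replicate 1 inside the wtIDH1 range and replicate 3 highest (edgeR log2 fold change 0.95 ± 0.53 SE, adjusted p = 0.325). Wipi2 was at 55.9 ± 3.50 CPM in wtIDH1 libraries and 48.2 ± 9.86 in mIDH1 libraries (log2 fold change -0.21, adjusted p = 0.627). Per kilobase of exon, Wipi2 was at 10.8 and 9.32 CPM in wtIDH1 and mIDH1, and Wipi1 at 1.54 and 2.98.

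**Figure D2:**
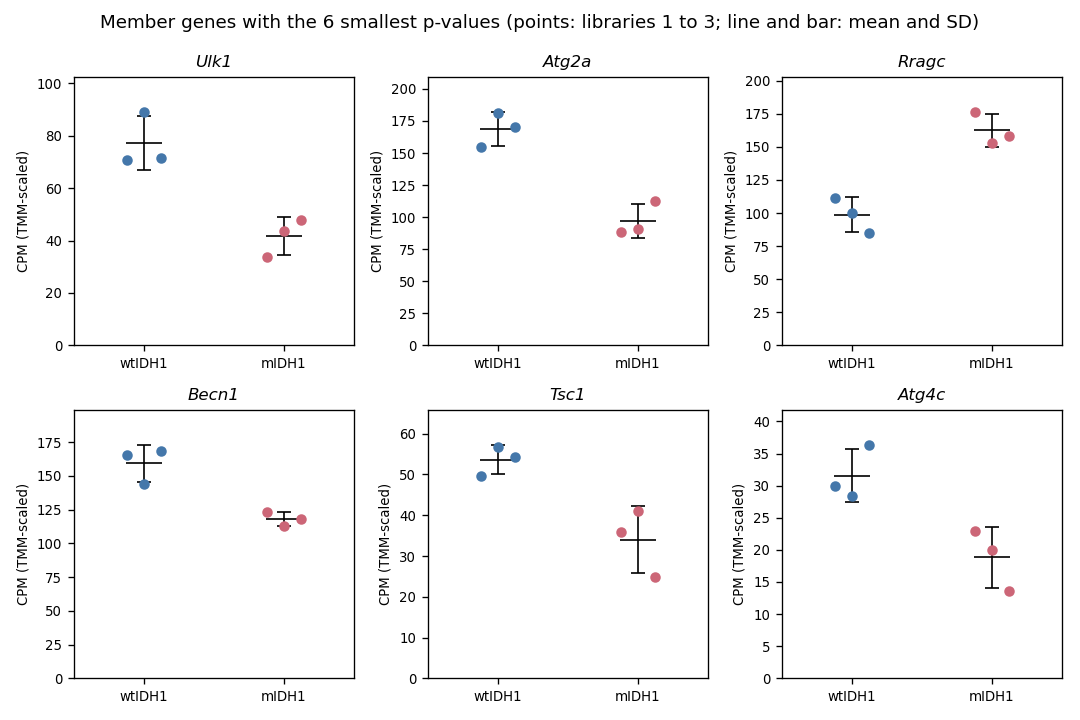
CPM (y axis, from 0) in each wtIDH1 and mIDH1 library of the 6 member genes with the smallest p-values; points are libraries, the horizontal line is the mean and the bar the SD. In all 6 panels the groups do not overlap, which the choice by p-value favours and which holds for 28.9% of all genes tested. Becn1, Tsc1 and Atg4c did not pass the threshold after adjustment over all genes.

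None of the 16 conjugation genes passed edgeR's test, 1 of them (Atg4c) had an unadjusted p under 0.05, and none passed by DESeq2 or limma voom either. Of all genes tested 8.17% passed and 22.2% had an unadjusted p under 0.05. The median log2 fold change of these genes was 0.09, and 10 estimates were positive and 6 negative. For the enzymes that activate and transfer the ubiquitin-like proteins the intervals covered 0. Atg7, the activating enzyme, was at 59.2, 67.7 and 63.4 CPM in wtIDH1 and 61.3, 101 and 60.8 CPM in mIDH1, where replicate 2 alone was high (95% interval of the log2 fold change -0.25 to 0.72). Atg5, which joins ATG12 in the complex that directs lipidation, was at 54.3, 60.0 and 63.5 CPM in wtIDH1 and 61.2, 68.1 and 66.5 CPM in mIDH1, with overlapping groups and an interval of -0.26 to 0.54. The intervals of the transferring enzyme Atg3 (-0.56 to 0.44) and of Atg12 (-0.27 to 1.06) also covered 0, while Atg10, which loads ATG12 onto ATG5, was so low (4.95 ± 1.71 and 5.93 ± 3.49 CPM) that its interval ran from -1.12 to 1.63.

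Both ATG16-like genes had lower means in mIDH1 without passing. Atg16l1, whose protein places the conjugation complex on the membrane, was at 49.7, 74.2 and 54.6 CPM in wtIDH1 and 21.9, 56.1 and 41.6 CPM in mIDH1. The mIDH1 libraries differed among themselves by more than the group means did, and replicate 2 lay inside the wtIDH1 range (edgeR log2 fold change -0.58 ± 0.31 SE, adjusted p = 0.299). Atg16l2 was at 15.4, 14.1 and 12.9 CPM in wtIDH1 and 3.85, 6.21 and 13.2 CPM in mIDH1, with mIDH1 replicate 3 at the wtIDH1 level (adjusted p = 0.317).

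The 4 ATG4 proteases, which trim ATG8 proteins before conjugation and release them afterwards, had estimates of both signs, and none passed. Atg4c was at 29.9985, 28.4 and 36.3 CPM in wtIDH1 and 23.0, 20.0 and 13.6 CPM in mIDH1, lower in every mIDH1 library (edgeR log2 fold change -0.74 ± 0.29 SE, adjusted p = 0.140). Atg4d was at 19.0, 23.1 and 17.1 CPM in wtIDH1 and 27.2, 36.6 and 25.0 CPM in mIDH1, higher in every mIDH1 library (edgeR log2 fold change 0.58 ± 0.28 SE, adjusted p = 0.240). Exons of Kri1, on the other strand, cover 23.2% of the exon bases of Atg4d, and Kri1 averaged 42.2 CPM in wtIDH1 and 29.4 in mIDH1. Atg4b, with a log2 fold change of -0.02, and Atg4a, with 0.56, had overlapping groups, and both were highest in mIDH1 replicate 1, at 38.0 and 25.4 CPM.

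The ATG8 family, the proteins that coat the autophagosome, had 5 of 5 log2 fold changes smaller than 0.5 in size, as had 7089 of all 12950 genes tested. The groups overlapped for each of the 5 genes. Gabarap was at 153, 166 and 166 CPM in wtIDH1 and 156, 170.2 and 164 CPM in mIDH1. The libraries of both groups covered nearly the same range, and the 95% interval of the log2 fold change was -0.32 to 0.35. Map1lc3b, the gene of LC3B, was at 78.9, 101 and 97.8 CPM in wtIDH1 and 86.7, 101 and 97.8 CPM in mIDH1, with an interval of -0.34 to 0.43. For Gabarapl1 (-0.34 to 0.64), Gabarapl2 (-0.36 to 0.76) and the scarce Map1lc3a (-1.49 to 1.05) the intervals also covered 0. Per kilobase of exon, Gabarap was the highest of the 5 in every library. It made up 64.5 ± 3.48% of the family's summed level in wtIDH1 and 63.1 ± 2.23% in mIDH1, and Map1lc3b 9.56 ± 0.686% and 9.57 ± 0.0696%. Gabarapl1 (21.4 and 23.7 CPM per kilobase in wtIDH1 and mIDH1) and Gabarapl2 (19.3 and 22.1) followed, and their libraries overlapped within each group. Map1lc3b (17.8 and 18.4) came next, overlapping both in wtIDH1 but lying below every Gabarapl2 value in mIDH1, and Map1lc3a (8.00 and 6.88) was the lowest. Lengths are exon unions of protein-coding transcripts, and no source used here tells how reads were shared between similar genes, which makes this order approximate.

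**Figure D3:**
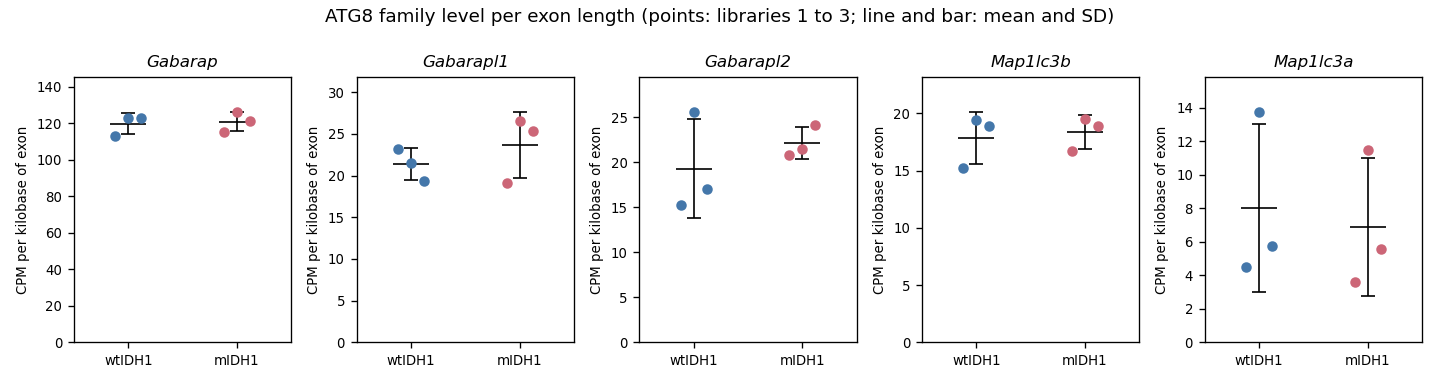
Level per exon length (CPM per kilobase, y axis, from 0, with its own range in each panel) of the 5 ATG8 family genes in wtIDH1 and mIDH1 libraries; points are libraries, the line is the mean and the bar the SD. In each panel the groups overlap, and Gabarap, near 120 in both groups, is far above the others.

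None of the 4 cargo receptor genes of the list passed edgeR's test, none had an unadjusted p under 0.05, and none passed by DESeq2 or limma voom. Of all genes tested 8.17% passed and 22.2% had an unadjusted p under 0.05, so little can be read from counts over 4 genes. Tax1bp1, a receptor for ubiquitin-marked cargo that also dampens inflammatory signalling, was at 317, 353 and 397 CPM in wtIDH1 and 304, 345 and 284 CPM in mIDH1. Its groups overlapped (edgeR log2 fold change -0.19 ± 0.16 SE, adjusted p = 0.551). Optn, the gene of optineurin, a receptor for damaged mitochondria and bacteria, was at 11.9, 12.4 and 21.0 CPM in wtIDH1 and 13.4, 14.7 and 8.66 CPM in mIDH1, where wtIDH1 replicate 3 stood above all others; without that library the log2 fold change was 0.02 instead of -0.29. Calcoco1, a receptor for the endoplasmic reticulum, was at 27.6, 21.8 and 27.1 CPM in wtIDH1 and 21.3, 18.9 and 26.7 CPM in mIDH1, also overlapping (adjusted p = 0.742). Nbr1, a relative of p62, was at 96.5 ± 7.97 and 101 ± 8.71 CPM, with a log2 fold change of 0.07 and an interval of -0.30 to 0.44.

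Of the 10 genes of mTORC1 and its regulators 1 rose and none fell, which is 10% against 8.17% of all genes tested. Rragc encodes RagC, which pairs with RagA or RagB to bring mTORC1 to the lysosome and TFEB to mTORC1 (chromosome 4, 123917433 to 123936997). It was at 111, 100.1 and 85.1 CPM in wtIDH1 and 176, 153 and 158 CPM in mIDH1. Every mIDH1 library was above every wtIDH1 library, and the mean rose from 98.8 ± 13.1 to 162 ± 12.3 CPM (SD, n = 3 each; edgeR log2 fold change 0.72 ± 0.17 SE, adjusted p = 0.024). The call was lost without wtIDH1 replicate 2 (adjusted p = 0.109) or 3 (0.129) and without mIDH1 replicate 1 (0.052) or 2 (0.054), with log2 fold changes between 0.62 and 0.81. Exons of a gene on the other strand, 4930535I16Rik, cover 10.2% of the exon bases of Rragc. Rragd, its paralog, was near the limit of measurement, at 2.22, 3.79 and 0.655 CPM in wtIDH1 and 2.53, 3.94 and 6.94 CPM in mIDH1. The groups overlapped and the interval of its log2 fold change was wide, -0.86 to 2.87 (adjusted p = 0.557). Per kilobase of exon, Rragc was at 38.1 and 62.6 CPM and Rragd at 0.430 and 0.864 CPM in wtIDH1 and mIDH1.

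The subunits of the mTOR complexes did not pass. Mtor, the kinase, was at 95.4, 82.5 and 119 CPM in wtIDH1 and 85.1, 55.3 and 92.2 CPM in mIDH1, with overlapping groups (edgeR log2 fold change -0.35 ± 0.22 SE, adjusted p = 0.398). Rptor, whose protein defines mTORC1, was almost constant in wtIDH1, at 88.4, 88.5 and 87.7 CPM, and at 70.6, 73.2 and 88.8 CPM in mIDH1, where replicate 3 reached the wtIDH1 level (log2 fold change -0.19, interval -0.57 to 0.19). Rictor, which defines the sister complex mTORC2, and Mlst8, shared by both, had log2 fold changes of -0.20 and -0.24 with adjusted p of 0.660 and 0.836. Bricd5, on the other strand, covers 25.6% of the exon bases of Mlst8.

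Among the regulators other than the Rag genes, Tsc1 had the smallest p. TSC1 and TSC2 form the complex that switches off Rheb, the direct activator of mTORC1. Tsc1 was at 49.7, 56.8 and 54.4 CPM in wtIDH1 and 36.0, 41.1 and 24.9 CPM in mIDH1, lower in every mIDH1 library but not past the threshold (edgeR log2 fold change -0.66 ± 0.24 SE, adjusted p = 0.116). Tsc2 was at 71.6, 47.0 and 72.3 CPM in wtIDH1 and 67.0, 73.5 and 63.8 CPM in mIDH1, with 2 mIDH1 values inside the wtIDH1 range and 1 just above it (interval -0.36 to 0.56). Pkd1, on the other strand, covers 10.9% of the exon bases of Tsc2 and averaged 87.8 CPM in wtIDH1 and 83.6 in mIDH1. Rheb was higher in every mIDH1 library, at 27.0 ± 2.64 and 34.8 ± 2.79 CPM, without passing (log2 fold change 0.37, adjusted p = 0.409). Flcn, the gene of folliculin, which activates RagC and RagD and so steers TFEB, was at 69.6, 68.9 and 74.2 CPM in wtIDH1 and 69.4, 58.5 and 57.0 CPM in mIDH1, with mIDH1 replicate 1 inside the wtIDH1 range (edgeR log2 fold change -0.20 ± 0.18 SE, adjusted p = 0.584).

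The promoters of the 3 members past the threshold are shown because TFEB and its relatives bind the palindrome CACGTG, which is central to the CLEAR element of lysosomal and autophagy genes. Each window runs from 250 bases before to 50 after a RefSeq start (GRCm38.p6), 5′ to 3′ on the gene's strand, with CACGTG in capitals where present.
Ulk1 (chr5:110810032-110810331, minus strand): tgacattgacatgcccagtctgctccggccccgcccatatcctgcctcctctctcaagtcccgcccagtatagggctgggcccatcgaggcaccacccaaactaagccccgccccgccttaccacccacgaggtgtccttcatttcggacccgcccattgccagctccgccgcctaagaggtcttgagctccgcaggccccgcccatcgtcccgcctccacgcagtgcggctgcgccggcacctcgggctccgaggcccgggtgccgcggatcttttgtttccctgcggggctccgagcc
Atg2a (chr19:6241418-6241717, plus strand): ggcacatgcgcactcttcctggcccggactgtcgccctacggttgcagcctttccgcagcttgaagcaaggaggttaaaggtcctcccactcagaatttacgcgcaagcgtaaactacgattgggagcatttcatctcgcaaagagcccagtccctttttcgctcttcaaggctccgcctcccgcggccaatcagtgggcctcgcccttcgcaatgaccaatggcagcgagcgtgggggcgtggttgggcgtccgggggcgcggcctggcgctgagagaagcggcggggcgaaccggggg
Rragc (chr4:123917183-123917482, plus strand): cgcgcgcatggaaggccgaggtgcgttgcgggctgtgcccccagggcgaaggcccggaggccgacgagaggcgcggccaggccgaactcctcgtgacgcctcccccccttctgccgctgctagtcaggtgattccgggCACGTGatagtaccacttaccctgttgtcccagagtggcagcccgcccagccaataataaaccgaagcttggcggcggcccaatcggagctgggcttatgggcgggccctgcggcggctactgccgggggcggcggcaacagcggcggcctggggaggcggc
CACGTG occurred once in the Rragc window, 112 bases before the start, and not in the windows of Ulk1 and Atg2a.

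Of 44 listed members, here with Atg101, 38 had a window, with 42 windows among them, since a gene can have several starts. Of the 38 members 5 (13.2%) held CACGTG in any window, against 8.09% of all 27025 genes with a window of this length. The full 10-base CLEAR palindrome, which contains CACGTG, was in 0 of the 38 and in 0.370% of all genes. Each motif equals its own reverse complement, so both strands were covered. Besides Rragc the 5 members are the conjugation enzyme genes Atg3 and Atg7, Atg5 and the mTORC1 activator gene Rheb, and the stretches around their matches are shown so that the flanking bases can be compared, with the motif in capitals.
Rragc (chr4:123917311-123917336, plus strand): tgattccgggCACGTGatagtaccac
Rheb (chr5:24842442-24842467, minus strand): cgcgcgcggtCACGTGggtgtgttgt
Atg7 (chr6:114670954-114670979, plus strand): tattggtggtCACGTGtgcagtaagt
Atg5 (chr10:44268315-44268340, plus strand): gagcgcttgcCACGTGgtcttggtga
Atg3 (chr16:45158725-45158750, plus strand): ctccttttgtCACGTGtcctgggaga
Atg3 (chr16:45158748-45158773, plus strand): agagtcgagtCACGTGaggccttagg
Atg3 held the motif at 2 places in 1 window. The Atg7 match belongs to a start inside the gene, which itself begins at 114643127 on chromosome 6. The log2 fold changes of these 5 genes were 0.72 (Rragc), 0.37 (Rheb), 0.23 (Atg7), 0.14 (Atg5) and -0.06 (Atg3), and only Rragc passed the threshold. A match describes these letters and is not evidence of binding.

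Genes next to the members in the same pathways were read from 7 further lists with 105 genes. Of these 103 were matched to a row and 100 were tested, and 3 rose and 6 fell, which is 9% against 8.17% of all genes tested. Among transcription factors that act on autophagy genes (TFEB, FOXO and relatives), 1 of 7 fell. Tfeb, a master regulator of lysosomal genes, was at 44.9, 76.3 and 38.9 CPM in wtIDH1 and 23.9, 26.4 and 30.3 CPM in mIDH1. It was lower in every mIDH1 library, and wtIDH1 replicate 2 stood above the rest (edgeR log2 fold change -0.99 ± 0.28 SE, adjusted p = 0.046). Tfeb was just past the threshold. It passed in 7 of 15 alternatives, and not with scaling by library totals (adjusted p = 0.061) or upper-quartile factors (0.059). Leaving out wtIDH1 replicate 1, 2 or 3 gave adjusted p of 0.065, 0.255 and 0.057, and leaving out mIDH1 replicate 1 or 2 gave 0.102 and 0.121. Its log2 fold change without wtIDH1 replicate 2 was -0.65.

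Of 12 further receptor genes tested 1 fell and none rose. Sqstm1, which encodes p62, the receptor that links ubiquitin-marked cargo to LC3, was at 581, 750.4 and 653 CPM in wtIDH1 and 375, 421 and 408 CPM in mIDH1. The groups were well apart (edgeR log2 fold change -0.72 ± 0.16 SE, adjusted p = 0.019), and the call was lost without wtIDH1 replicate 2 (adjusted p = 0.114) or 3 (0.072) or mIDH1 replicate 2 (0.055). Exons of Mrnip, on the other strand, cover 20.6% of the exon bases of Sqstm1. Of 14 partners of the ULK1 and Beclin 1 complexes, and of 14 genes of fusion with the lysosome, none passed edgeR's test. In each list 2 genes had an unadjusted p under 0.05. Of all genes tested 8.17% passed and 22.2% had such a p. DESeq2 called 1 fusion gene, Vps16, as lower, and limma voom none in either list.

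Of 21 genes that carry the amino acid signal to the Rag proteins (Ragulator and GATOR complexes and their partners, folliculin partners), 1 rose and 1 fell. Fnip2, the gene of a folliculin partner, was at 239, 231 and 225 CPM in wtIDH1 and 367, 349 and 386 CPM in mIDH1, tight in both groups and higher in every mIDH1 library (edgeR log2 fold change 0.67 ± 0.15 SE, adjusted p = 0.02). Fnip2 lost its call without wtIDH1 replicate 1, 2 or 3 (adjusted p = 0.06, 0.106 and 0.099).

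Of 25 tested genes for mTOR partners and upstream kinases, 1 rose and 2 fell. Deptor, which encodes an inhibitor bound to mTOR, was at 15.3, 13.8 and 18.7 CPM in wtIDH1 and 23.5, 47.1 and 63.7 CPM in mIDH1, where the libraries were far apart but all above wtIDH1 (edgeR log2 fold change 1.49 ± 0.34 SE, adjusted p = 0.02). Stk11, the gene of LKB1, the kinase that activates AMPK, was at 76.0, 81.5 and 73.2 CPM in wtIDH1 and 32.1, 43.8 and 44.6 CPM in mIDH1 (edgeR log2 fold change -0.94 ± 0.21 SE, adjusted p = 0.016). The groups did not overlap for Deptor or Stk11. Stk11 lost its call without wtIDH1 replicate 2 (adjusted p = 0.087) or 3 (0.058). Deptor lost it with limma voom (0.066), without wtIDH1 replicate 1, 2 or 3 (0.064, 0.111 and 0.058) and without mIDH1 replicate 2 or 3 (0.063 and 0.056).

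Of 7 tested genes that act downstream of mTORC1 in translation, 1 rose and 1 fell. Pdcd4, an inhibitor of translation initiation that is degraded after phosphorylation downstream of mTORC1, was at 36.6, 34.1 and 25.3 CPM in wtIDH1 and 60.1, 62.8 and 71.1 CPM in mIDH1 (edgeR log2 fold change 1.01 ± 0.22 SE, adjusted p = 0.016). Larp1, whose protein binds mRNAs that mTORC1 controls, was at 508, 537 and 495 CPM in wtIDH1 and 372, 319 and 288 CPM in mIDH1 (edgeR log2 fold change -0.65 ± 0.16 SE, adjusted p = 0.028). The groups did not overlap for either gene. Pdcd4 lost its call without wtIDH1 replicate 2 (adjusted p = 0.069) or 3 (0.083), and Larp1 without wtIDH1 replicate 1 (0.073), 2 (0.126) or 3 (0.092) or mIDH1 replicate 2 (0.095). These values are transcript levels, and the phosphorylation through which mTORC1 acts was not measured.

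**Figure D4:**
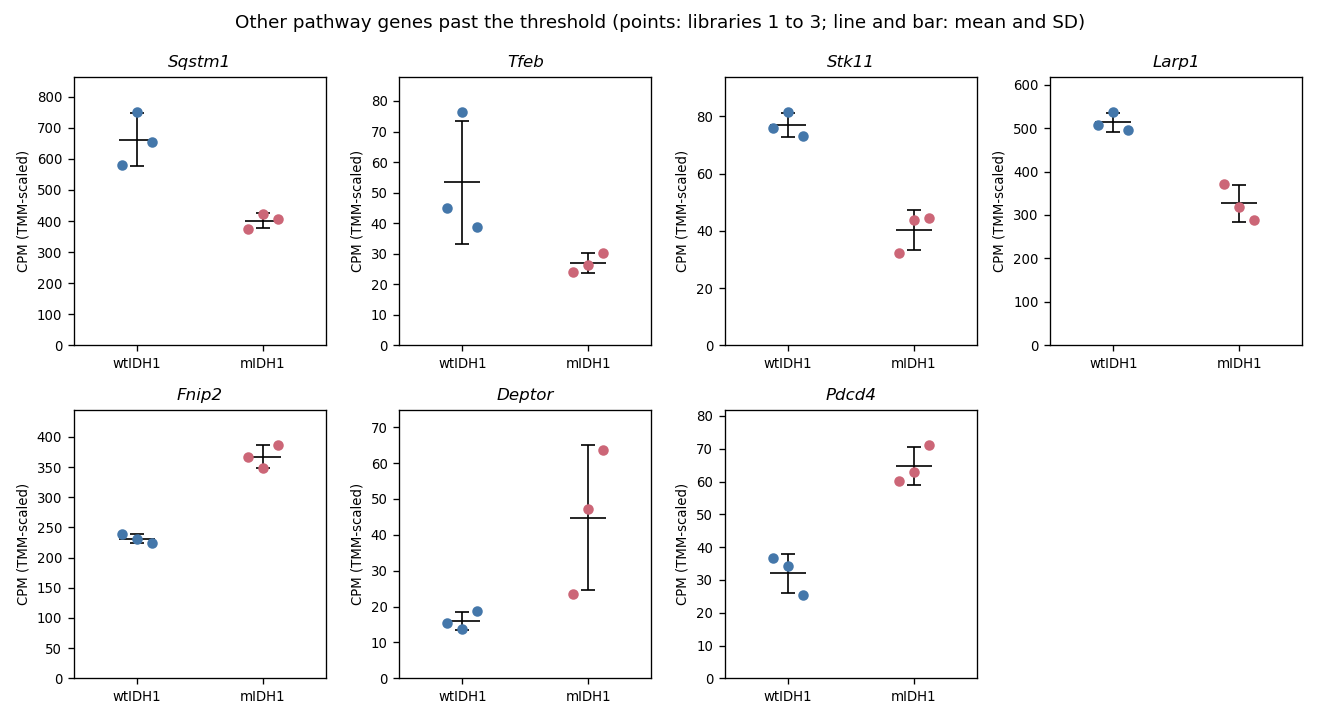
CPM (y axis, from 0) of 7 further pathway genes past the threshold in each wtIDH1 and mIDH1 library; points are libraries, the line is the mean and the bar the SD. Sqstm1, Tfeb, Stk11 and Larp1 are lower in all 3 mIDH1 libraries, and Fnip2, Deptor and Pdcd4 are higher in all 3.

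Marker genes of myeloid and other cell types were read in the same libraries. Of 10 macrophage marker genes 5 rose and none fell, where 2.78% of all genes tested rose. Csf1r did not pass but was lower in every mIDH1 library (1839 ± 115 CPM in wtIDH1 and 1507 ± 136 in mIDH1). The library with the highest sum was mIDH1 replicate 3. There Apoe, which did not pass, was at 6836 CPM, against 2173 and 2690 CPM in mIDH1 replicates 1 and 2. Of 10 tested neutrophil markers 3 rose and 1 fell, with sums of 338 to 418 and 449 to 510.1 CPM. These lay far below the macrophage sums of 6049.6 to 6970.2 and 7889.9 to 15844 CPM. The neutrophil markers that rose were Cxcr2 (means 22.7 and 50.2 CPM in wtIDH1 and mIDH1), Mmp8 (30.1 and 109) and Lcn2 (6.00 and 35.0). Csf3r, which fell from 260 to 148 CPM, made up most of each wtIDH1 sum. S100a8 averaged 4.31 CPM in wtIDH1 and 10.3 in mIDH1, and S100a9 31.2 and 48.8. Both were higher in every mIDH1 library without passing (edgeR adjusted p = 0.191 and 0.175). Camp, Mpo and Elane were too scarce to be tested. Of 9 monocyte markers 1 rose and 2 fell, with overlapping sums of 5754 to 9798 and 5257 to 8148 CPM. F13a1 rose (means 357 and 1231 CPM), and Ly6c2 and Plac8 (318 and 82.8 CPM) fell. Fn1, the largest part of every sum, and Ccr2 were lower in every mIDH1 library without passing. The other monocyte markers overlapped between the groups. The sums of 7 microglia markers, of which 1 rose (900.0 to 1459 and 822 to 1664 CPM), 7 T and NK cell markers (120.3 to 291 and 185 to 429 CPM) and 7 dendritic cell markers (92.4 to 112 and 52.2 to 112 CPM) overlapped too. The 9 glioma and neural markers summed to 83.0 to 93.4 and 88.3 to 95.2 CPM, most of it Mbp. Sox2 alone passed, rising from at most 0.151 CPM in wtIDH1 to between 0.546 and 7.30 CPM in mIDH1. Nes (means 2.91 and 8.97 CPM) and Pdgfra (0.216 and 3.08) were also higher in every mIDH1 library but did not pass (edgeR adjusted p = 0.092 and 0.134). The other tested markers, Gfap and Mbp, had lower means in mIDH1 with overlapping groups. The 6 endothelial markers summed to 95.9 to 131 and 62.7 to 100.1 CPM with Rgs5 at 0 in all libraries, and the 5 B cell markers to 2.72 to 4.55 and 5.43 to 12.0312 CPM. Counts of the ribosomal RNA precursor Rn45s made up 4.78 ± 1.68% of the wtIDH1 and 6.80 ± 1.11% of the mIDH1 libraries (SD, n = 3 each). The part of these shifts in the values of Ulk1, Atg2a, Rragc and the other genes was not tested.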

How the data were processed

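For 6 libraries the authors deposited estimated counts in a single gene table, without scaling for depth. Build mm10 is named by the submitters' processing notes, beside HTSeq, Cuffdiff 2.1.1, Cufflinks, Bowtie2 2.2.1, TopHat2 2.0.13 and FastQC; order, settings and annotation were not stated there. Per the labels' protocols, polyA-selected mRNA was prepared with a TruSeq mRNA v2 kit, a type that does not mark strand. Values were rounded to whole counts.

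Members and lists were chosen with earlier results of these data known. Genes were kept with filterByExpr (minimum count 10), scaled by TMM and tested with glmQLFit and glmQLFTest of edgeR 4.0.16 (R 4.3.3), two-sided, with group as the only term. Intervals cover 95%. Counts were also simulated with 200 genes changed, and 12637 genes were tested. Of 99 genes changed by a log2 of 1, 34.3% were recovered, and of 98 changed by 2, 64.3%, with 8 false calls among 105. The data gave 1058 calls, and the adjustment is stricter where fewer genes change. These shares therefore do not give the recovery in the data, nor that for the members. No replicate pair agreed within counting noise (chi-square divided by its degrees of freedom 48.5 to 139). Alternatives were other scalings, filters, DESeq2 1.42.0, limma voom 3.58.1, robust dispersions, a replicate block and leaving out each library. Given with values in every library are all members past the threshold, the 3 smallest p in each role group and 13 genes picked by function, and, of each further list, up to 3 genes past the threshold. Ulk2, Atg13 and Atg16l2 were added after their values were seen; the remaining members are given more briefly. Exon lengths are from GENCODE M21, and coordinates and promoters from RefSeq (GRCm38.p6, the build of mm10). Of the 9 further pathway genes past the threshold, 2 are counted but not reported here. Rps6kb1 and Rps6kb2 were not analysed here.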

Additional observations from a re-analysis of the deposited data

How the results depend on the processing

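Ulk1 and Atg2a were lower in mIDH1 and Rragc higher in each of the 15 alternatives tried. Ulk1 passed the threshold in 11 of them, Atg2a in 12 and Rragc in 10. In all scalings, filters, tools and with robust dispersions the same 3 members passed. DESeq2 called 1705 genes in all, where the main test called 1058. The labels do not say whether replicate numbers pair the samples, and no sign of pairing was seen. Deviations of same-numbered libraries from their group means correlated at -0.03, 0.03 and -0.05, and in either group only replicate 2 correlated best with its own number. With 3 libraries per group this check cannot exclude pairing. With the replicate number as a block, 585 genes passed, 0 members were higher (0 of the mTORC1 group) and 5 further pathway genes passed; Rragc had an adjusted p of 0.057, and Sqstm1, Fnip2, Larp1 and Tfeb lost their calls. When 1 library was left out, between 334 and 1033 genes passed, 0 to 1 members as higher and 0 to 2 as lower. In the initiation, phagophore and mTORC1 groups that is 0 to 1 each, and among further pathway genes 0 to 10. None of the members passed without wtIDH1 replicate 2 or 3 or without mIDH1 replicate 2, and without mIDH1 replicate 1 only Atg2a did. Single estimates were followed for the 23 members named by rule; with 1 library left out, 5 of these, none past the threshold, changed sign: Map1lc3b (-0.0649 to 0.105, lowest without wtIDH1 replicate 1), Gabarap (-0.0307 to 0.045, likewise), Tsc2 (-0.088 to 0.197, lowest without wtIDH1 replicate 2), Optn (-0.446 to 0.0151, highest without wtIDH1 replicate 3) and Atg7 (-0.0543 to 0.36, lowest without mIDH1 replicate 2). Sign changes among the other 20 members were not followed. The cause of these changes and of the lost calls was not tested. Low counts go with the widest intervals, those of Rragd, Atg10, Map1lc3a, Wipi1 and Mlst8.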

Other observations

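The members varied less between replicates than genes in general. The median coefficient of variation of a member's CPM was 11.2% in wtIDH1 and 17.8% in mIDH1, against 23.9% and 28.2% over all genes tested, a set that holds many scarcer genes. In 26 of 43 members it was larger in mIDH1. Rptor in wtIDH1 had the smallest, 0.456%, and Rragd in wtIDH1 the largest, 70.6%.

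Single libraries stood at the ends of the range for several members. The library mIDH1 replicate 1 was the lowest of the 6 for 13 of 43 members (30.2%) and for 15.9% of all genes tested, and wtIDH1 replicate 2 was the lowest for 2 members (4.65%) and for 17.1% of all genes. At the other end, wtIDH1 replicate 3 was the highest for 10 members (23.3%) and for 16.3% of all genes, and wtIDH1 replicate 1 for 3 members (6.98%) and for 12.9%. Ddit4, which encodes the stress-induced mTORC1 inhibitor REDD1 and was singled out after its values were seen, was at 30.9, 37.2 and 38.8 CPM in wtIDH1 and 31.3, 36.3 and 97.5 CPM in mIDH1, with only mIDH1 replicate 3 high (edgeR adjusted p = 0.352).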
